A study of Mus musculus with 9 samples.

Results

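Hesx1, Six3, Six6, Otx1, Otx2, Pax6, Rax, Lhx2 and Emx2 are homeobox genes that mark or build the anterior neural plate, the part of the mouse embryo that becomes forebrain, eyes and pituitary. The 9 genes are a list of names with no threshold on measured values, drawn up with earlier results of these data known. All 9 of 9 were found by their symbol among the 18193 genes with a probe set of their own on the array. They were read by 15 of the 45101 probe sets, and each gene was represented by whichever of its probe sets was brightest on average across the 9 arrays. No forkhead gene is among the 9, and the forkhead gene Foxd4 is described with the other anterior neural genes.

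Values are log2 signals of Affymetrix Mouse Genome 430 2.0 arrays hybridised with biotin-labelled total RNA, 3 biological replicates in each of 3 groups. The labels do not say how replicates were separated, so p-values measure the spread between these samples. The first group, EpiSC with Vehicle, held epiblast stem cells, which resemble the epiblast after implantation. The second, EpiSC with IWP2, held the same cell type given IWP2, which inhibits the enzyme Porcupine and so keeps cells from releasing Wnt proteins. Both EpiSC groups grew in N2B27 that held 20 ng/ml Activin A plus 12 ng/ml bFGF, on plates coated with gelatine and FCS. The third group, ESC, held embryonic stem cells, which stand for the earlier naive state, in N2B27 that held 1000 U/ml LIF plus 250 ng/ml Wnt3a, on gelatine. All 3 groups are labelled C57BL/6 and carry no named genetic change. ESCs differed from EpiSCs in cell type and in medium at once, and these cannot be told apart. How much IWP2 was given, and for how long, is not stated in the labels, and the treatment text common to all samples also speaks of Wnt3a added after IWP2.

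In the embryo, the anterior neural plate forms where Wnt signalling is kept low. Antagonists released by the anterior endoderm and the prechordal plate, such as Cer1 and Dkk1, help to protect it, and Six3 and Hesx1 repress Wnt genes or responses in the forebrain field itself. Otx2 acts earlier, in the epiblast and the anterior visceral endoderm, before the plate exists, and Hesx1 is also expressed in anterior endoderm of the mouse.

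Replicate arrays of a group correlated at 0.997 to 0.998 over all probe sets, and arrays of different groups at 0.927 to 0.985. Naive markers set ESCs apart, as labelled: the mean over 6 of them was 11.19 to 11.21 for ESCs, 4.12 to 4.27 for vehicle EpiSCs and 3.95 to 4.11 for IWP2-treated EpiSCs. The mean over 6 primed markers was 10.45 to 10.54 for vehicle EpiSCs, 8.84 to 8.85 for IWP2-treated EpiSCs and 6.42 to 6.49 for ESCs. These 6 did not all run in that order. With IWP2 4 fell at a limma adjusted p under 0.05, and Pou3f1 and Dnmt3b (-0.21 each) did not pass. In ESCs 5 were lower than with vehicle and 1, Sfrp2, was higher by 0.22. Pou5f1, Sox2 and Nanog, the genes of both pluripotent states, had group means between 9.97 and 12.69 in all 3 groups. The mean over 5 neuron markers was 6.56 to 6.83 on the 9 arrays, which hides opposite changes. With IWP2 3 of them rose and 1, Stmn2, fell by 0.86, at a limma adjusted p under 0.05. In ESCs 2 were higher and 2 lower than with vehicle. Over all probe sets the lower quartile was 3.72 and the median 5.24. Values near or under the lower quartile are close to the floor of the array, where differences shrink and where the summarised values give no call of presence.

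The promoters of Hesx1, Six3 and Otx2 are shown because the probe set representing each of these genes changed from well above the floor. For Six3 this holds on 1427523_at alone, 1 of its 3 probe sets. The sequences are from RefSeq, build GRCm38.p6, and run from 250 bases before to 50 bases after an annotated start, read along the gene. Capitals mark matches to GGATTA (the Otx site) or TAATTA (a paired and LIM homeodomain site), on either strand. For Otx2, which has several annotated starts, the window that holds the GGATTA match is given.
Hesx1, chr14:27000112-27000411, + strand: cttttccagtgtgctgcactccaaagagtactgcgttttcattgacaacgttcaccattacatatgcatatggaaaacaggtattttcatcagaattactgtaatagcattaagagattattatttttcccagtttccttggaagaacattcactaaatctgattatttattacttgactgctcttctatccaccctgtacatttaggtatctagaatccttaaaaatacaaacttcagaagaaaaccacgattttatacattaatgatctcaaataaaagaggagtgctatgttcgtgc
Six3, chr17:85620584-85620883, + strand: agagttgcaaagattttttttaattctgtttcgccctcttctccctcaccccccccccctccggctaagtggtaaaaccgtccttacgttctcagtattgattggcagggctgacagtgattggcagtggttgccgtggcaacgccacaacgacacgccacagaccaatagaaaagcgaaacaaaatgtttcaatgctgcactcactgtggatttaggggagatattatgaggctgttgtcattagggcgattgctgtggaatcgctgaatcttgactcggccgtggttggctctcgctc
Otx2, chr14:48665060-48665359, - strand: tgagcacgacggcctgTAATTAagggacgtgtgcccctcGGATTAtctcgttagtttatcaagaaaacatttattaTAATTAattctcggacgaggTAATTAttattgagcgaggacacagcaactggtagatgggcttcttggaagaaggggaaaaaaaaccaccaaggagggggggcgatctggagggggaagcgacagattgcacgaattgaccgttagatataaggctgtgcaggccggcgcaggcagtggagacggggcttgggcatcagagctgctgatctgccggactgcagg

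RefSeq windows were found for 7 of the 9 genes (not for Otx1 and Rax), 12 windows in all. Otx2, Pax6 and Lhx2 have more than 1 window each, and 2 of the Otx2 windows overlap. The 12 are therefore not independent, and their counts were not tested against the shares over all windows. The windows were searched on both strands for 4 motifs. GGATTA was present in 1 of the 12, the Otx2 window above, with its first base at -211 from the start, against 7.06% of all 32851 windows. TAATTA was present in 3 of the 12, in 2 Otx2 windows and in that of Emx2, against 5.29% of all windows. It occurs 3 times in the Otx2 window above, with first bases at -234, -174 and -154. The Tcf/Lef motif CTTTGAT (3.73% of all windows) and the Oct motif ATGCAAAT (1.74%) were present in 0 of the 12, which says only that these letters are not in these windows. The motifs share no overlapping bases in the windows shown. The Hesx1 window had 33.7% G and C with 4 CG pairs, the Six3 window 50% with 14 and the Otx2 window 51.0% with 16, beside quartiles of 45.7% and 61.7% over all windows.

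The first comparison asked what stopping the release of the cells' own Wnt proteins did to EpiSCs. Of the 9 genes, 4 fell with IWP2 (Hesx1, Six3, Rax and Otx2), 1 rose (Six6) and 4 did not pass the test (Otx1, Pax6, Lhx2 and Emx2), at a limma adjusted p under 0.05. Over all 18193 genes the test called 33.5% in either direction, 16.8% lower and 16.6% higher. A fall by 1 log2 or more was called for 2 of the 9 (Hesx1 and Six3) and for 2.81% of all genes. Six3 counts as lower through 1427523_at alone, a probe set chosen through its vehicle values. The median difference of the 9 genes was 0.04 log2, beside 0.03 over all genes. In RNA from whole cultures, fewer cells that express a gene and less RNA per cell cannot be told apart.

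Hesx1, which encodes a repressor of the forebrain and pituitary field, changed most. Its log2 signal was 8.35, 8.64 and 8.81 on the vehicle arrays, 3.16, 3.05 and 3.26 on the IWP2 arrays and 4.39, 4.21 and 3.88 on the ESC arrays. Vehicle EpiSCs were high on all 3 arrays, and neither of the other groups came near them. The IWP2 minus vehicle difference was -5.45 ± 0.143 (SE, limma adjusted p = 5.23e-09), a size of 43.6-fold. Of the 18193 genes, 8 had a lower difference. IWP2 arrays were below the lower quartile of all values, so the size is limited by the floor, and with 32 added on the linear scale it was -3.36.

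Otx2, a homeobox gene of the epiblast and later of forebrain and midbrain, fell far less. Its signal was 11.06, 11.12 and 11.08 with vehicle, 10.46, 10.46 and 10.57 with IWP2 and 6.77, 6.99 and 6.75 in ESCs. The 2 EpiSC groups did not overlap, but both stayed high on every array. The difference with IWP2 was -0.59 ± 0.073 (SE, limma adjusted p = 0.000202), or 1.5-fold, and 960 genes had a lower one.

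Six3, which represses Wnt genes in the anterior neural plate, was at 6.22, 6.10 and 6.11 with vehicle, at 4.30, 4.58 and 4.44 with IWP2 and at 4.56, 4.47 and 4.65 in ESCs. The vehicle arrays stood above the other 6. The difference with IWP2 was -1.70 ± 0.082 (SE, limma adjusted p = 3.14e-07). Of the 3 Six3 probe sets this was the sole one called. Probe set 1426638_at gave means of 4.90 and 4.88 (difference -0.03, limma adjusted p = 0.894 over all probe sets) and 1426637_a_at, near the floor, 3.10 and 2.97 (difference -0.13, limma adjusted p = 0.192). As the mean of its 3 probe sets Six3 fell by 0.62, and with 32 added on the linear scale by 0.93.

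Rax, the eye field gene, was at 5.16, 4.99 and 4.82 with vehicle, at 4.31, 4.25 and 4.20 with IWP2 and at 4.28, 4.38 and 4.51 in ESCs. All 9 values lay below the median of all probe sets, and the vehicle arrays were above the rest without overlap. It fell with IWP2 by 0.74 ± 0.091 (SE, limma adjusted p = 0.000203), and by 0.32 with 32 added on the linear scale. Six6, the close relative of Six3 that acts in eye and pituitary, was at 2.96, 2.96 and 3.37 with vehicle, at 3.79, 3.44 and 3.63 with IWP2 and at 3.40, 3.22 and 3.38 in ESCs. The IWP2 arrays were above the other 6 by a narrow margin, and the vehicle and ESC arrays overlapped. It rose by 0.52 ± 0.126 (SE, limma adjusted p = 0.0101) at levels around the lower quartile, and by 0.13 with 32 added on the linear scale.

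**Figure D1:**
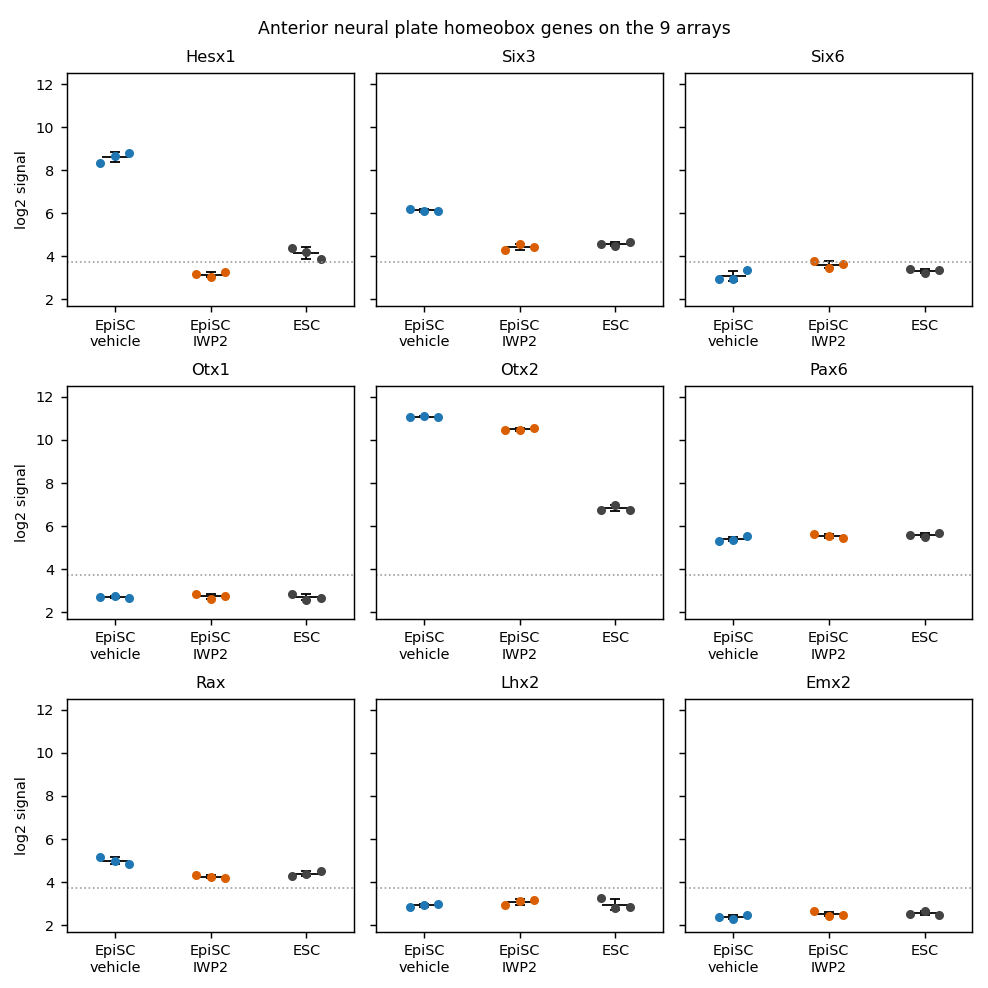
Log2 signal of the 9 genes (vertical axis) on each array by group, 3 points per group, with black bars for mean ± SD and a dotted line at the lower quartile of all values (3.72). Hesx1 is high in vehicle EpiSCs alone, at 8.35 to 8.81, Otx2 is high in both EpiSC groups, and Otx1, Lhx2 and Emx2 stay under the line on all 9 arrays.

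Otx1, Lhx2 and Emx2 were at the floor in every group. Otx1, the later forebrain relative of Otx2, ranged from 2.59 to 2.86 over the 9 arrays. Lhx2, a LIM homeobox gene of eye and cortex, ranged from 2.78 to 3.24, and Emx2, a gene of the dorsal telencephalon, from 2.30 to 2.67. All 9 values lay below the lower quartile for these 3 genes, as they did for 12.4% of all genes. For 5 of the 9 genes, Six6 and Rax being the others, all arrays were below the median, as for 32.8% of all genes. The intervals of the IWP2 minus vehicle difference were -0.16 to 0.23 for Otx1, -0.12 to 0.41 for Lhx2 and -0.04 to 0.31 for Emx2 (95%, log2). At such levels a change of RNA below the reach of the array would not be seen.

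Pax6, a paired-box and homeobox gene of eye and cortex, depended on the probe set. The probe set with the highest mean, 1456342_at, read 5.32, 5.36 and 5.53 with vehicle, 5.62, 5.56 and 5.44 with IWP2 and 5.59, 5.48 and 5.69 in ESCs. These groups overlapped, and none of the 3 comparisons passed the test (limma adjusted p of 0.243, 0.0746 and 0.646). The probe set with the next highest mean, 1419271_at, read 5.11, 5.35 and 5.39 with vehicle, 6.23, 6.20 and 6.11 with IWP2 and 4.45, 4.18 and 4.37 in ESCs. There the 3 groups were apart on every array, highest with IWP2 and lowest in ESCs. Tested with every probe set as a feature of its own, its differences were 0.90 ± 0.093 for IWP2 minus vehicle (limma adjusted p = 6.61e-05), -0.95 ± 0.093 for ESC minus vehicle (adjusted p = 8.08e-06) and -1.85 ± 0.093 for ESC minus IWP2 (SE, adjusted p = 4.02e-08).

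The other 3 Pax6 probe sets lay lower. Probe set 1452526_a_at ran in the same order as 1419271_at, with means of 3.48 ± 0.253 with vehicle, 3.95 ± 0.211 with IWP2 and 2.88 ± 0.292 in ESCs (SD, n = 3). It was called lower in ESCs than in either EpiSC group (limma adjusted p of 0.0104 and 0.000273), and its rise with IWP2 was not called (0.47, adjusted p = 0.0627). Probe set 1425960_s_at was called in none of the 3 comparisons, with means of 3.96, 4.01 and 3.93. Probe set 1437816_at was higher in ESCs than in vehicle EpiSCs by 0.25 and than with IWP2 by 0.27. As the mean of its 5 probe sets Pax6 rose with IWP2 by 0.31 (limma adjusted p = 0.00166). What each probe set of Pax6 and Six3 detects was not tested.

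**Figure D2:**
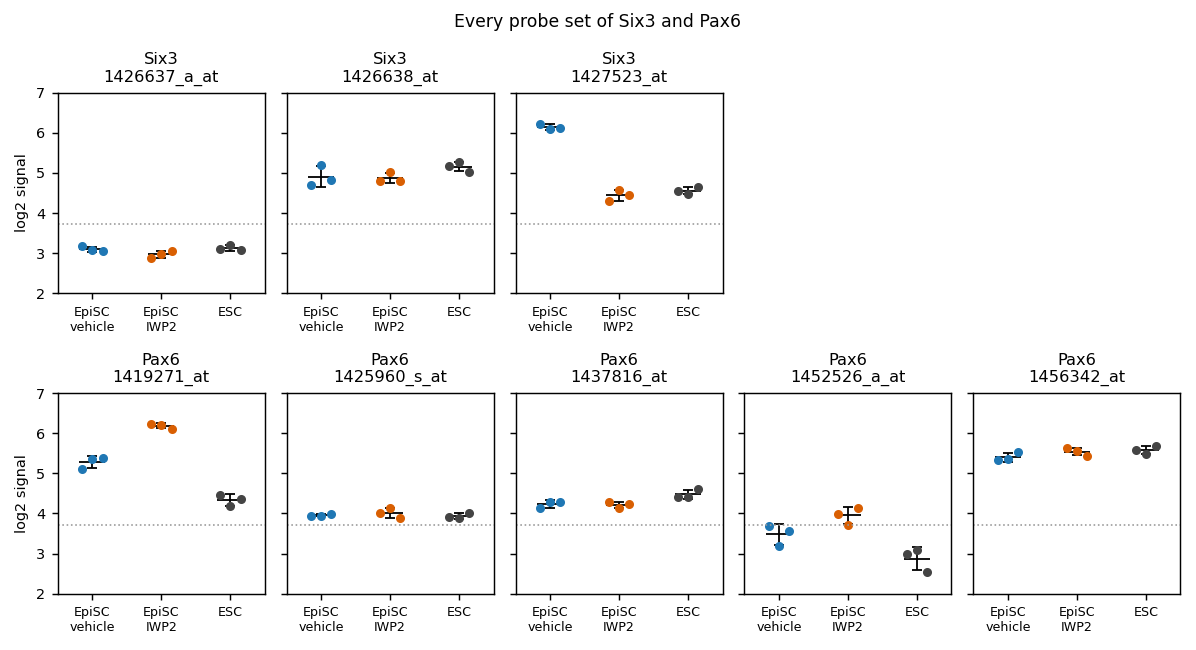
Log2 signal (vertical axis) of the 3 probe sets of Six3, in the top row, and the 5 of Pax6, in the bottom row, by group, with mean ± SD in black and the lower quartile of all values (3.72) dotted. Six3 falls on 1427523_at alone, and Pax6 is flat on 1456342_at but highest with IWP2 (6.11 to 6.23) on 1419271_at.

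Antisense genes that carry the name of a member had probe sets of their own for 4 genes. They were looked up after the values above were seen, and antisense genes under other names were not sought. Six3os1, transcribed next to Six3 from the opposite strand, was at 3.33, 3.80 and 3.0 with vehicle and at 2.73, 2.56 and 2.55 with IWP2. It fell by 0.77 ± 0.161 (SE, limma adjusted p = 0.00496), between values that mostly lie under the lower quartile. Otx2os1 and Pax6os1 were not called with IWP2 (differences -0.12 and 0.00), nor was Emx2os (0.16). In ESCs compared with vehicle Six3os1 (-0.71, limma adjusted p = 0.00321) and Otx2os1 (-0.54, adjusted p = 0.00272) were lower, Emx2os was higher by 0.30 (adjusted p = 0.02) and Pax6os1 was not called. In ESCs compared with IWP2-treated EpiSCs Otx2os1 was lower (-0.42, adjusted p = 0.0115) and the other 3 were not called.

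ESCs were set against vehicle EpiSCs to compare the naive with the primed state. Of the 9 genes, 4 were lower in ESCs (Hesx1, Otx2, Six3 and Rax), 5 were not called and 0 were higher, by limma at an adjusted p under 0.05. At an unadjusted p under 0.05 the count of higher genes was also 0. The test called 27.9% of all genes lower and 38.7% higher in this comparison, 66.6% in all. A difference of 1 log2 or more in this direction was called for 3 of the 9 (Hesx1, Otx2 and Six3) and for 9.63% of all genes.

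Hesx1 was lower in ESCs by 4.44 ± 0.143 (difference -4.44, SE, limma adjusted p = 1.96e-09) and Otx2 by nearly as much (-4.25 ± 0.073, adjusted p = 2.48e-11). In this comparison 66 genes had a lower difference than Hesx1 and 79 than Otx2. The comparison shares its vehicle arrays with that of IWP2. Side by side, the IWP2 and ESC differences from vehicle were -5.45 and -4.44 for Hesx1, -1.70 and -1.58 for Six3, -0.74 and -0.60 for Rax, and -0.59 and -4.25 for Otx2. With 32 added on the linear scale the ESC differences were -3.07 for Hesx1, -0.88 for Six3, -0.27 for Rax and -3.91 for Otx2. Six6 (0.24, interval -0.05 to 0.52) and Lhx2 (0.03, interval -0.23 to 0.29) were among the 5 genes not called. The median difference of the 9 genes was 0.00, beside 0.12 over all genes.

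ESCs and IWP2-treated EpiSCs were compared directly. Otx2 was lower in ESCs by 3.66 (difference -3.66 ± 0.073, SE, limma adjusted p = 7.15e-11), and Hesx1 was higher by 1.0 ± 0.143 (adjusted p = 0.000138). The other 7 genes were not called, and the test called 62.1% of all genes, 35.2% higher and 26.9% lower, 9.4% lower by 1 log2 or more. The median difference of the 9 genes was 0.03, beside 0.10 over all genes. The Hesx1 difference separated low values, 3.88 to 4.39 in ESCs from 3.05 to 3.26 with IWP2, and was 0.29 with 32 added on the linear scale. For Six3 and Rax the intervals of the difference were -0.07 to 0.30 and -0.06 to 0.34, and for Emx2 -0.14 to 0.21 (95%, log2).

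The order of the groups therefore differed by gene. Hesx1 ran from vehicle to ESC to IWP2, and Otx2 from vehicle to IWP2 to ESC, with every step called. Six3, as read by 1427523_at, and Rax were highest with vehicle, and their ESC and IWP2 levels did not differ beyond their spread. Six6 ran from IWP2 to ESC to vehicle, and neither neighbouring step was called.

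**Figure D3:**
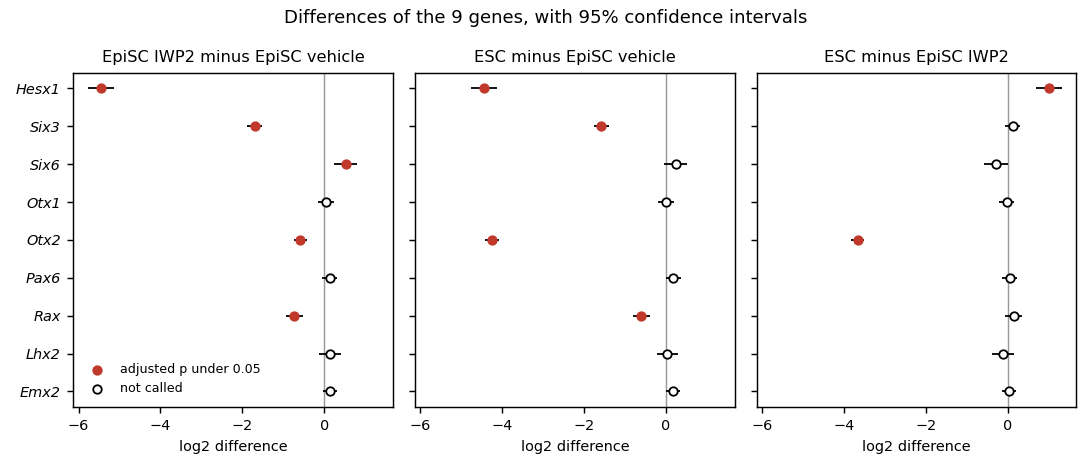
Log2 difference of each gene (horizontal axis) in the 3 comparisons, with 95% confidence intervals from limma as lines and filled points for an adjusted p under 0.05. Hesx1 and Six3 lie at the left in both comparisons with vehicle, and Otx2 moves from -0.59 with IWP2 to -4.25 in ESCs.

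Genes with profiles close to those of Hesx1, Six3 and Otx2 were sought by the Euclidean distance of log2 values, centred on each gene's mean, over the 9 arrays. The arrays form 3 groups, so closeness mostly means similar group means. Nearest to Hesx1 were Dkk1 (distance 0.94 log2), the secreted Wnt antagonist of anterior endoderm, Slit2 (1.01), an axon guidance ligand, and Pga5 (1.03), a pepsinogen gene. Dkk1 was at 9.14 ± 0.130 with vehicle, 4.08 ± 0.136 with IWP2 and 4.45 ± 0.334 in ESCs (SD, n = 3). Nearest to Otx2 were Ghr (0.25), the growth hormone receptor gene, Heph (0.47), a copper-containing iron oxidase gene, and Ptn (0.51), the gene of the growth factor pleiotrophin. Ghr was at 8.19 ± 0.134, 7.70 ± 0.024 and 3.95 ± 0.140 (SD, n = 3). Nearest to Six3, as read by 1427523_at, were Rabgap1l (0.28), Fgd5 (0.34) and Ankrd66 (0.37). The other Six3 probe sets did not have this profile.

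**Figure D4:**
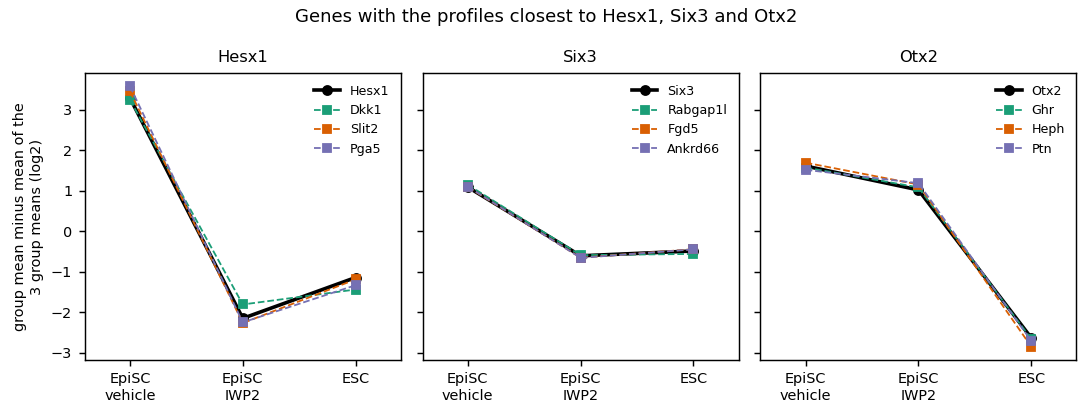
Group means of Hesx1, Six3 (1427523_at) and Otx2 (black) and of the 3 genes closest to each (coloured, dashed), after subtraction of each gene's mean over the groups (log2, vertical axis). Dkk1, Slit2 and Pga5 drop with Hesx1 in both IWP2 and ESC samples, whereas Ghr, Heph and Ptn stay high with Otx2 under IWP2.

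Most genes of anterior endoderm and prechordal plate, the tissues that underlie the anterior neural plate, fell together with Hesx1. Of 14 measured, 13 fell with IWP2 and 0 rose (limma, and 0 at an unadjusted p under 0.05), with a median of -3.94 log2 beside 0.03 over all genes. The fall was 1 log2 or more for 11 of them, and for 2.81% of all genes. Lefty1 fell only from 12.35 to 12.14, and Nog, near the floor, from 3.77 to 3.38. The ligand gene Shh fell from 10.75 ± 0.172 to 4.09 ± 0.123 and the homeobox gene Lhx1 from 10.48 ± 0.236 to 3.50 ± 0.076 (SD, n = 3), with limma adjusted p of 2.54e-10 for both. In ESCs 13 of the 14 were lower than in vehicle EpiSCs (median -3.71, with 0 higher and 1 higher at an unadjusted p under 0.05). The list was drawn up with these falls already known, and its counts are not independent evidence. Between ESCs and IWP2-treated EpiSCs 5 were higher in ESCs and 1 was lower (median 0.17), where 35.2% of all genes were called higher and 26.9% lower. Among the 5, Hhex (0.51) and Shh (0.56) had the smallest p, and Shh was low in both groups (4.65 in ESCs, 4.09 with IWP2). The 1 lower gene was the Nodal antagonist gene Lefty1 (-2.99).

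Of the 6 endoderm markers used to check the cells, 4 are also in that list (Foxa2, Sox17, Cer1 and Hhex), so they repeat its values. The mean over the 6 was 8.25 to 8.39 for vehicle EpiSCs, 4.34 to 4.52 for IWP2-treated EpiSCs and 4.63 to 4.80 for ESCs. Of the 6, 5 fell with IWP2, and Gata4 was not called, at 4.45 ± 0.124 with vehicle and 4.23 ± 0.266 with IWP2 (SD, n = 3). Gata6, which is in the marker list alone, fell by 3.99 ± 0.097 (SE, limma adjusted p = 3.53e-09).

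Some markers of other cell types fell with IWP2 as well. The mean over 6 trophoblast markers was 5.03 to 5.14 for vehicle EpiSCs, 4.16 to 4.29 for IWP2-treated EpiSCs and 5.18 to 5.22 for ESCs. Krt7 and Gata3 fell with IWP2 by 3.19 and 2.03, and the other 4 were not called. In ESCs compared with vehicle Krt7 and Gata3 were lower as well (-3.02 and -2.04). There 3 of the 6 were higher, Tfap2c by 4.25, so the similar list means of ESCs and vehicle EpiSCs hide opposite changes. The mean over 6 fibroblast and feeder markers was 5.58 to 5.92 for vehicle EpiSCs, 5.30 to 5.46 for IWP2-treated EpiSCs and 4.62 to 4.69 for ESCs. With IWP2 the collagen genes Col3a1 and Col1a2 fell by 2.30 and 0.90, Dcn and Thy1 rose by 0.78 and 0.72, and the other 2 were not called. The part of endoderm, trophoblast and fibroblast markers in the falls of Hesx1, Six3, Rax and Otx2 was not tested.

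Other anterior neural genes were read next. Of 16 measured, 12 did not pass the test with IWP2, 3 fell and 1 rose, and the median was 0.09. Over all genes 33.5% were called with IWP2. For ESC minus vehicle 38.7% were higher and 27.9% lower, and for ESC minus IWP2 35.2% and 26.9%. These shares are the background for the counts of each gene list. Among those not called, Fezf1, Lhx5, Vax2, Barhl2 and Wnt8b had means under the lower quartile in every group. The forkhead gene Foxd4, which acts in early neural ectoderm, fell by 3.16 ± 0.127 (SE, limma adjusted p = 8.34e-08), from 6.55 ± 0.242 to 3.38 ± 0.044 (SD, n = 3). In ESCs it was at 3.47 ± 0.199. Dmrta2, a zinc finger gene of the cortical neuroepithelium, fell by 1.60 ± 0.185 (adjusted p = 0.000137), and Vax1, a homeobox gene of the ventral forebrain and optic stalk, rose by 0.24 (adjusted p = 0.0313) near the floor. In ESCs compared with vehicle 6 were higher and 4 lower (median 0.13), with Mitf, the gene of the pigment cell factor, higher by 4.09 and Vax2 by 0.50, and Foxd4 (-3.08) and Dmrta2 (-2.49) lower. In ESCs compared with IWP2-treated EpiSCs 5 were higher and 2 lower (median 0.09), among them Sp8 (-1.10), a zinc finger gene of the anterior neural ridge.

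Genes of midbrain, hindbrain and more posterior neural tissue were followed for contrast. Of 16 measured, 4 fell with IWP2, 0 rose (limma, and 0 at an unadjusted p under 0.05) and the other 12 did not pass the test (median -0.04). Over all genes 16.8% fell and 16.6% rose. Irx3, a homeobox gene, fell from 9.99 ± 0.150 to 5.74 ± 0.273 (SD, n = 3, limma adjusted p = 3.68e-07) and the hindbrain gene Egr2, which is also an immediate early gene, from 5.25 ± 0.038 to 3.48 ± 0.245 (adjusted p = 3.03e-05). In ESCs 8 were higher and 2 lower than with vehicle (median 0.18), with Gbx2 higher by 2.90 and Cdx1 by 1.11. Gbx2, which opposes Otx2 at the border of midbrain and hindbrain, was at 4.72 ± 0.060 with vehicle, 4.73 ± 0.181 with IWP2 and 7.62 ± 0.045 in ESCs (SD, n = 3). Against IWP2-treated EpiSCs 7 were higher in ESCs and 2 lower (median 0.25), with En2 higher by 1.54.

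General neural genes went both ways. With IWP2, 5 of 16 measured rose, 4 fell and 7 did not pass the test (median 0.14), where 33.5% of all genes were called. Sox3, a SoxB1 factor gene of epiblast and neural progenitors, rose by 1.37 ± 0.109 (SE, limma adjusted p = 1.08e-05) and the adhesion gene Ncam1 by 0.89, whereas Fabp7, a radial glia gene, fell by 1.71 and Stmn2, a neuronal tubulin regulator, by 0.86. Sox1, the early neural plate factor gene, was at 5.35 ± 0.141 with vehicle, 5.49 ± 0.185 with IWP2 and 5.67 ± 0.110 in ESCs (SD, n = 3). In ESCs compared with vehicle 7 were higher and 6 lower (median 0.01). There Sox2 (1.98) was higher and the POU factor gene Pou3f1 (-5.22) lower. Against IWP2-treated EpiSCs 3 were higher and 8 lower (median -0.17), with Sox3 at -2.58.

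Transcripts of proteins that work with the 9 factors were also read. Groucho-type corepressors of the Tle family bind Hesx1 and Six3, and Ldb and Ssbp proteins assemble LIM homeodomain complexes such as those of Lhx2. Of 18 such partner genes, 4 rose with IWP2, 8 fell and 6 were not called (median -0.14), where 33.5% of all genes were called. Tle1 fell by 0.58 ± 0.059 (SE, limma adjusted p = 5.71e-05) and Eya2 by 0.72, and Ssbp2 rose by 0.71. In ESCs compared with vehicle 9 were higher and 9 lower (median 0.06), with Tle4 higher by 1.26 and Ssbp2 lower (-2.49). Against IWP2-treated EpiSCs 10 were higher and 6 lower (median 0.20), with Meis2 higher by 2.89.

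Family relatives of the 9 genes were read as well. Of 12 measured, 3 fell with IWP2, 0 rose (limma, and 1 at an unadjusted p under 0.05) and the other 9 did not pass the test (median -0.04). Over all genes 33.5% were called. Alx1, a paired-like homeobox gene of the head mesenchyme, fell from 5.21 ± 0.166 to 3.22 ± 0.046 (SD, n = 3, limma adjusted p = 1.27e-07), and Pax3 fell by 0.40. In ESCs 5 were higher and 3 lower than with vehicle (median 0.13), with Lhx6 higher by 1.45 and Six4 by 0.93. Against IWP2-treated EpiSCs 4 were higher and 1 lower (median 0.16), with Six4 at 1.27 and Six5 at -0.51.

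**Figure D5:**
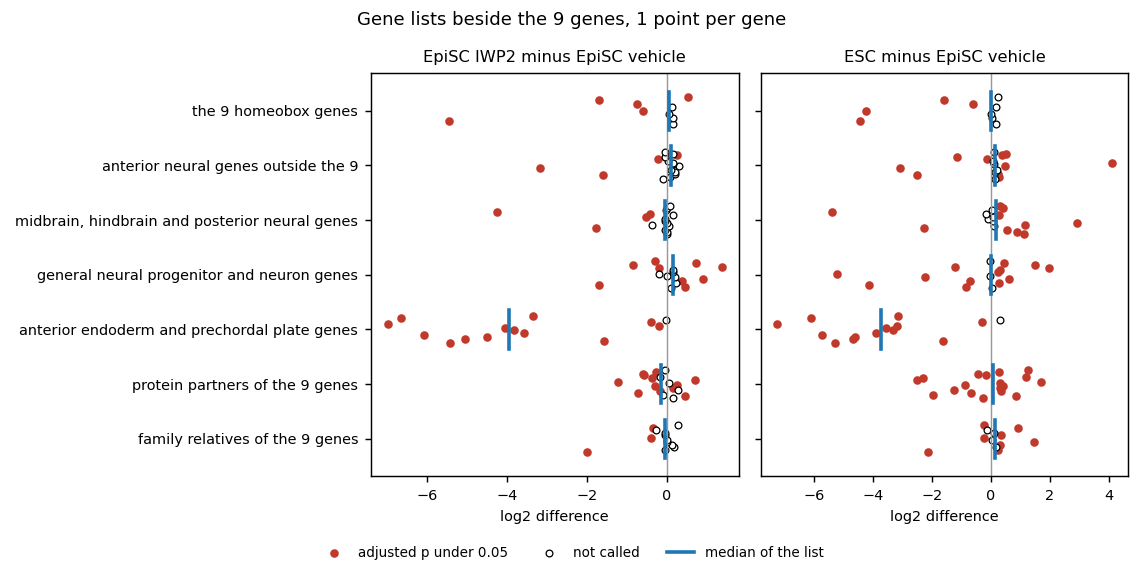
Log2 difference of every measured gene (1 point each, horizontal axis) of the 9 homeobox genes and of 6 other lists, for IWP2 minus vehicle on the left and ESC minus vehicle on the right, with filled points for a limma adjusted p under 0.05 and blue bars for medians. The anterior endoderm and prechordal plate list lies to the left, with medians of -3.94 and -3.71. In the top row Hesx1 is the lowest point, at -5.45 and -4.44, and on the right Otx2 lies close to it at -4.25.

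Hesx1 and Otx2 both lie on chromosome 14, and the nearest measured protein-coding gene on each side was looked up for every member after its values were seen. Beside Hesx1, Appl1 rose with IWP2 by 0.23 (limma adjusted p = 0.0185) and Il17rd, an inhibitor of FGF signalling, fell by 0.55 (adjusted p = 0.000137). In ESCs compared with vehicle Il17rd was lower (-1.01, adjusted p = 3.23e-07) and Appl1 was not called (-0.04). Beside Otx2, Exoc5 was not called (0.03 with IWP2 and -0.09 in ESCs), and Tmem260 rose by 0.47 with IWP2. Beside Six3, Six2 was not called in any of the 3 comparisons (-0.28, -0.13 and 0.15), and Prepl rose with IWP2 by 0.22. Beside Rax, Cplx4 was lower with IWP2 (-0.50, limma adjusted p = 0.00314) and in ESCs (-0.43, adjusted p = 0.00286) than with vehicle, as Rax was. Grp, on its other side, was not called with IWP2 (0.10) and was higher in ESCs (0.48, adjusted p = 0.0291). Beside Six6, 4930447C04Rik was at 2.47 with vehicle, 2.72 with IWP2 and 6.98 in ESCs. It was not called with IWP2 (0.25) and was higher in ESCs than with vehicle (4.51, limma adjusted p = 1.39e-09). Six4, on the other side of Six6, fell with IWP2 by 0.34 and was higher in ESCs than with vehicle by 0.93. Neighbours of the remaining members are not described, and a link between members and neighbours was not tested.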

How the data were processed

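The authors deposited log2 probe-set signals for 45101 probe sets on 9 arrays, and per the submitters' processing notes RMA and limma were used, without versions. RMA corrects background and quantile-normalizes arrays, and the array medians were 5.22 to 5.26. Such values carry no detection calls and would not show a change of total RNA per cell.

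Gene names came from the array's annotation: 34945 had 1 gene symbol, 932 several, 9160 none and 64 were controls. The probe set with the highest mean represented a gene. Group means were fitted to all 9 arrays with limma 3.58.1 in R 4.3.3 (lmFit, eBayes, 6 residual and 9.58 total degrees of freedom, median SE 0.082), two-sided, adjusted by Benjamini-Hochberg over 18193 genes per comparison. "Called" means an adjusted p under 0.05. The precision is limited by 3 arrays a group.

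The members and lists were chosen with earlier results of these data known. All 9 members are named. Of each other list the genes named are chiefly up to 2 called genes per direction with the smallest p. The cell type markers named, Sox1, Gbx2, Sox3 (ESC minus IWP2), the antisense genes and the neighbours were chosen after their values were seen.

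Alternatives were the mean of probe sets, every probe set as a feature, no _x_at or _s_at probe sets, leaving out genes with a mean below the median, 32 added before the log, other normalizations and variance models, fits of 6 arrays, a replicate block and leaving out each array.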

Additional observations from a re-analysis of the deposited data

How the results depend on the processing

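The falls of Hesx1, Six3, Otx2 and Rax with IWP2 kept direction and call under every alternative that tested them. So did their lower levels in ESCs than in vehicle EpiSCs, and both calls between ESCs and IWP2-treated EpiSCs. For Six3 these alternatives, the mean of probe sets apart, reused the same probe set, so they could not test that choice. Its other probe sets were not called with IWP2 (-0.03 and -0.13) or for ESC minus vehicle (0.26 and 0.02). Six6 kept its rise with IWP2 but was not tested under the filter on low signal, and neither were Six3 and Rax. With that filter 2 members were called lower and 0 higher with IWP2, and 2 lower for ESC minus vehicle, because these genes were left out. With the mean of probe sets 2 were called higher with IWP2, and 2 in each direction for ESC minus IWP2. Pax6 then reversed to -0.23 for ESC minus vehicle and -0.54 for ESC minus IWP2, as other probe sets entered the mean. For ESC minus vehicle 1 member, Pax6, was called higher with repeated quantile normalization, median centring or array weights. For ESC minus IWP2 2 were called lower, Six6 beside Otx2, with repeated quantile normalization, cyclic loess, fits of 6 arrays or the replicate block. The cause was not tested. With every probe set as a feature the calls over all features were 10168, 21764 and 20510, since more features were tested.

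Repeated quantile normalization and cyclic loess reversed Lhx2 (-0.08 and -0.10) and Otx1 (-0.10 and -0.12) for ESC minus vehicle and Emx2 (-0.03 and -0.05) for ESC minus IWP2, and array weights moved Otx1 to 0.00 there, none of them called. Leaving out 1 array gave 4949 to 5965 calls with IWP2, 11077 to 12115 for ESC minus vehicle and 10565 to 11323 for ESC minus IWP2. For ESC minus vehicle, 0 to 2 members were then higher, 2 (Pax6 and Six6) without vehicle replicate 3 and 1 (Pax6) without ESC replicate 2. For ESC minus IWP2, 1 to 2 were lower, with Six6 called without vehicle replicate 3 or IWP2 replicate 2 and Lhx2 (-0.25) without ESC replicate 1. Ranges that crossed 0 were Otx1 (-0.03 to 0.10) with IWP2, Lhx2 (-0.11 to 0.12) and Otx1 (-0.07 to 0.06) for ESC minus vehicle, and Emx2 (-0.03 to 0.09), Otx1 (-0.11 to 0.03) and Pax6 (-0.01 to 0.10) for ESC minus IWP2. Same-numbered arrays did not deviate together (correlations of -0.06 to 0.051), so no pairing by number was seen. With 3 arrays a group this cannot exclude that same-numbered samples were handled together. The replicate block gave 5754, 12024 and 11138 calls.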
